A study of Drosophila melanogaster with 9 samples.

Results

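Cytochrome c oxidase (complex IV of the mitochondrial respiratory chain) and the mitochondrial ATP synthase (complex V) were followed through their nuclear genes in Drosophila melanogaster of 3 genotypes. Genes were chosen by name: every gene whose current symbol begins with COX and a digit, or with ATPsyn, was taken. The rule found 34 genes, of which 28 had a probe set of their own on the array, out of 11983 genes measured. They comprise 17 main subunits, 7 of complex IV and 10 of complex V, and 11 paralogs, 7 of complex IV and 4 of complex V. Paralogs are the genes whose symbol ends in L, or in L and a digit. The other 6 genes were not measured here: COX1, COX2, COX3 and COX7CL had no probe set listed, and COX6B and ATPsynG were listed only with probe sets shared with another gene. Wild-type flies and mutants labelled OGA and SXC gave 3 arrays each; Oga encodes the enzyme that removes O-linked N-acetylglucosamine (O-GlcNAc) from proteins, and sxc encodes the transferase that adds it. The study's title concerns O-GlcNAcase in nutrient-dependent egg formation, and the labels give no allele, tissue, stage, age or batch.

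Complex IV passes electrons from cytochrome c to oxygen and pumps protons across the inner mitochondrial membrane. Its catalytic core is encoded by the mitochondrial genome, and the nuclear COX subunits surround that core. Complex V lets the protons back through a membrane ring of c subunits, whose turning drives ATP synthesis in a catalytic head, while a peripheral stalk holds the head still. Egg chambers are rich in mitochondria, which pass to the embryo through the oocyte. In Drosophila, duplicated copies of nuclear genes for these complexes are often expressed mainly in the testis.

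All values are log2 signals, and array medians over probe sets were 5.97 to 6.05. In the SXC mutant sxc fell from 11.83 ± 0.04 to 10.35 ± 0.02 (SD, n = 3), and in the OGA mutant Oga fell from 9.90 ± 0.22 to 8.84 ± 0.08 (SD, n = 3), in the direction of the labels. SXC mutant replicate 1 stood apart: 24.7% of all genes had their highest reading on it and 18.1% their lowest. The 3′ minus 5′ difference of a GAPDH control pair, a sign of RNA quality, was 2.94 ± 0.31 in the SXC mutant, 2.05 ± 0.26 in wild type and 2.11 ± 0.12 in the OGA mutant (SD, n = 3), and the SXC and wild-type arrays did not overlap. An actin control pair read 0.03 ± 0.03 in the SXC mutant and 0.05 ± 0.05 in wild type (SD, n = 3). Nothing in the labels says that replicates came from separate animals, so p-values measure the spread between these arrays, which may be technical.

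The wild-type arrays gave bright signals for the main subunits and dim ones for nearly all paralogs. Mean levels over the 9 arrays were 13.27 (COX8) to 14.31 (ATPsyngamma) for the 17 main subunits, at percentiles 97.5 to 99.6 of all genes. Among the paralogs, 10 of 11 read between 4.03 (COX5BL) and 5.85 (COX7AL), below the median gene at 7.50, and ATPsynepsilonL read 8.80. Signals of different probe sets also depend on their probes, so these values do not rank transcripts by abundance, and no detection calls were used to say whether the dim probe sets detected a transcript. The spread within groups was small for the main subunits, with a median SD of 0.046 against 0.10 for all genes and 0.10 for the paralogs. Genes of like brightness were not compared, so the part of signal level in this spread was not tested.

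**Figure D1:**
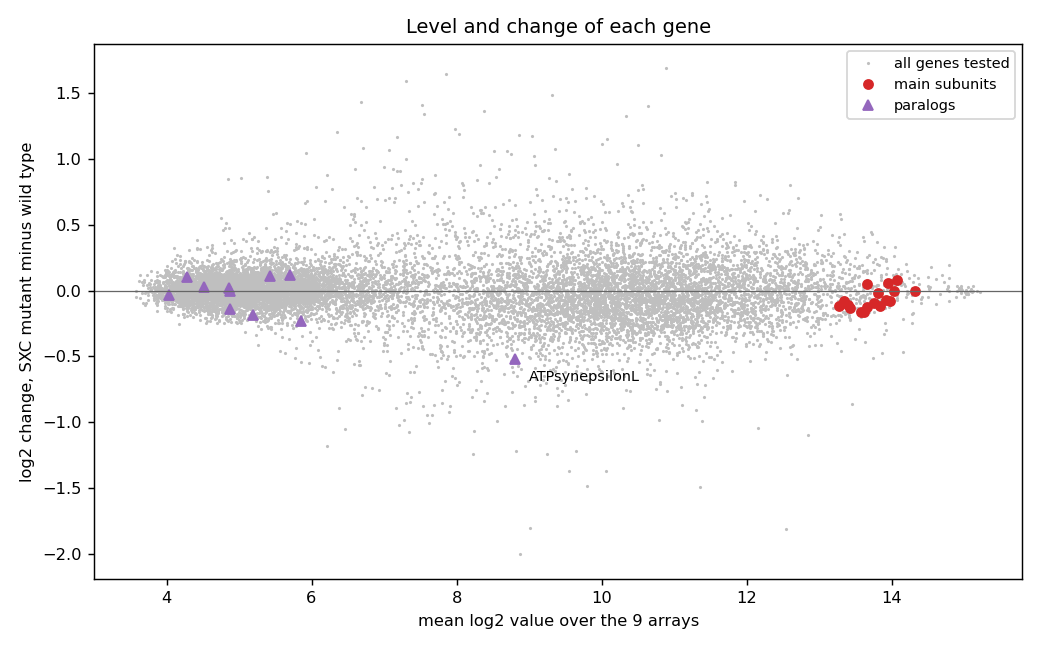
Each point is a gene; the horizontal axis is its mean log2 value over the 9 arrays and the vertical axis its log2 change in the SXC mutant against wild type. Main subunits (red circles) lie between 13.27 and 14.31 with changes of −0.17 to 0.08, paralogs (purple triangles) lie below 6 with ATPsynepsilonL the exception, and grey points are all genes tested.

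ATPsynepsilonL, a paralog of the gene for the epsilon subunit of the central stalk, was the member that changed in the SXC mutant. It read 9.12, 8.97 and 8.95 in wild type, 8.94, 8.90 and 8.86 in the OGA mutant and 8.36, 8.56 and 8.55 in the SXC mutant. All SXC mutant arrays were below all others, and the OGA mutant arrays lay just under the wild-type arrays. It fell 1.43-fold in the SXC mutant, a log2 change of −0.52 (SE 0.08, 95% interval −0.69 to −0.36, limma adjusted p = 0.00211 over all genes). In that comparison 12.9% of all genes passed, and 7.83% passed with a lower value, so that 1 called member of 28 is a smaller share than among all genes. The lowest SXC reading came from replicate 1, and without it the change was −0.45 (SE 0.07, adjusted p = 0.00724). Where RNA is read from many cells at once, fewer cells that express a gene and less of its RNA per cell cannot be told apart.

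The gene ATPsynepsilonL is named after has the current symbol sun (stunted) and lies outside the naming rule; it encodes the epsilon subunit itself. It read 8.28, 8.31 and 8.21 in wild type, 8.30, 8.24 and 8.10 in the OGA mutant and 8.30, 8.24 and 8.18 in the SXC mutant. The groups overlapped, and the difference between SXC mutant and wild type was −0.02 (SE 0.07, 95% interval −0.18 to 0.13, limma adjusted p = 0.875).

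**Figure D2:**
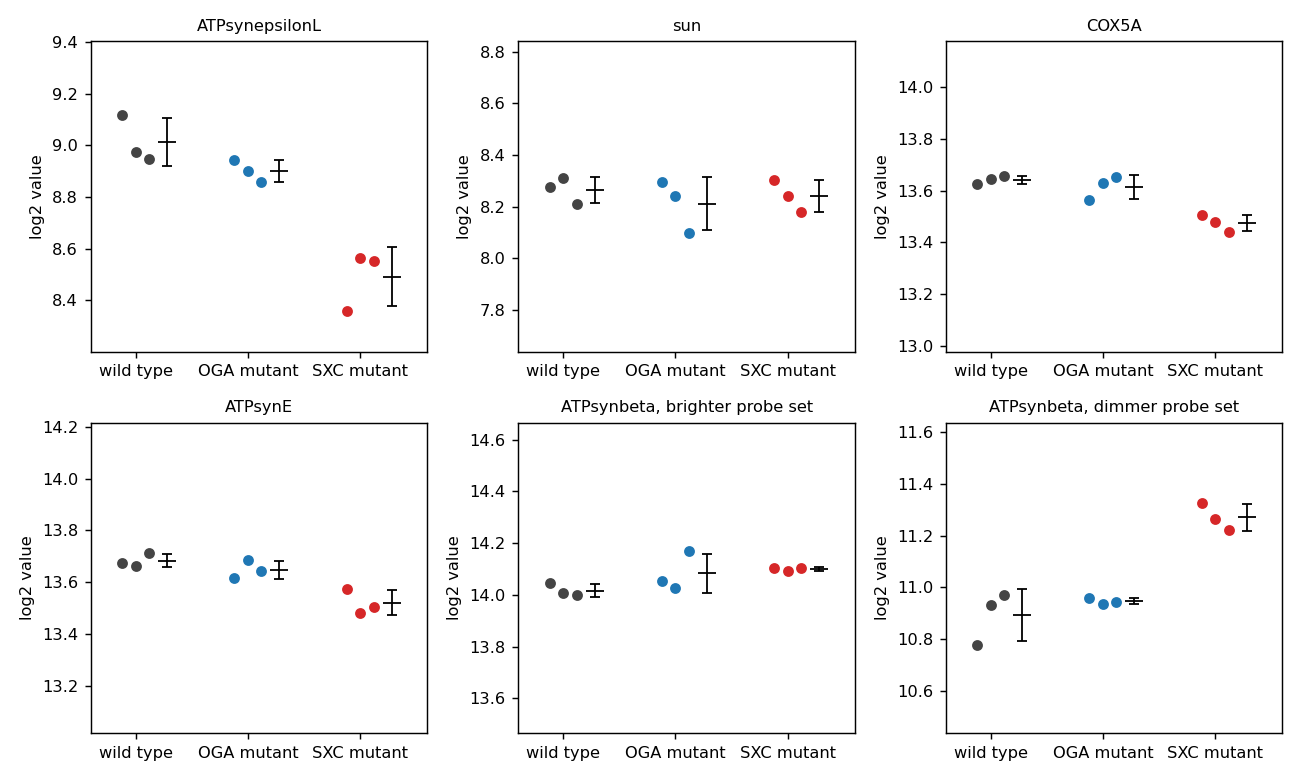
Log2 values on each array (points, replicates 1 to 3 from left to right) with the mean and SD of each group (bars), on axes of equal span. ATPsynepsilonL drops from 9.01 in wild type to 8.49 in the SXC mutant, sun stays between 8.10 and 8.31, COX5A and ATPsynE sit slightly lower in the SXC mutant, and the dimmer of the ATPsynbeta probe sets reads higher there while the brighter one moves little.

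None of the 17 main subunits passed the test in the SXC mutant; 3 had an unadjusted p under 0.05 in limma, which counts 3124 such genes in all. Their differences ran from −0.17 to 0.08 with a median of −0.08, against −0.0063 over all genes, and 14 of 17 were negative, against 51.8% of all genes. With a smooth trend over gene length removed from each array the median was −0.03 and 11 of 17 were negative. The SXC and wild-type arrays did not overlap for 12 main subunits, against 32.7% of all genes. In 11 of them the SXC mutant was lower (18.7% of all genes) and in 1 it was higher (14.0%). Averaged over the 17 genes, the arrays read 13.76, 13.77 and 13.80 in wild type, 13.70, 13.78 and 13.74 in the OGA mutant and 13.72, 13.71 and 13.69 in the SXC mutant. The SXC arrays were thus all below the wild-type arrays, while the OGA arrays overlapped both groups.

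In complex IV the clearest difference belonged to COX5A, a subunit on the matrix side of the enzyme. It read 13.62, 13.64 and 13.66 in wild type, 13.56, 13.63 and 13.65 in the OGA mutant and 13.50, 13.48 and 13.44 in the SXC mutant. The SXC arrays lay below all others, with a difference from wild type of −0.17 (SE 0.06, 95% interval −0.29 to −0.04) that did not pass (limma adjusted p = 0.0839). COX5B, also on the matrix side (mean level 13.34 over the 9 arrays), differed by −0.08 (SE 0.07, adjusted p = 0.515).

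Of the small subunits that cross the membrane once in the mammalian enzyme, COX7A read 13.50, 13.44 and 13.53 in wild type and 13.35, 13.36 and 13.36 in the SXC mutant, a difference of −0.13 (SE 0.08, limma adjusted p = 0.304). COX8 (mean level 13.27) differed by −0.12 (SE 0.06, adjusted p = 0.276) and COX7C (13.92) by −0.07 (SE 0.07, adjusted p = 0.566). For COX7B (13.95) the difference was 0.05 (SE 0.06, adjusted p = 0.671), and its groups overlapped. The sign of the difference for COX7B and COX7C turned with the probe set. The other probe sets of COX7B differed by −0.02 (mean level 13.81) and −0.10 (mean level 4.99, a dim one). For COX7B the 95% interval was −0.09 to 0.20 with the brightest probe set and −0.26 to 0.05 with the dim one. The other probe set of COX7C, also dim, differed by 0.26 (SE 0.11, 95% interval 0.03 to 0.50, limma adjusted p = 0.147). COX4, the largest nuclear-encoded subunit in mammals and the brightest complex IV probe set here, read 14.04, 14.04 and 14.06 in wild type, 14.01, 14.08 and 13.94 in the OGA mutant and 14.06, 14.04 and 14.03 in the SXC mutant. The groups of COX4 overlapped, and the interval of its difference between SXC mutant and wild type was −0.13 to 0.13.

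In complex V the members were read by their place in the enzyme. The catalytic head and central stalk were represented by ATPsynbeta, the catalytic subunit, ATPsyngamma, the rotating shaft, and ATPsyndelta, at the foot of the shaft. ATPsyngamma had the brightest probe set of all members and read 14.30, 14.31 and 14.34 in wild type, 14.29, 14.32 and 14.34 in the OGA mutant and 14.31, 14.31 and 14.31 in the SXC mutant. These groups overlapped, and its interval for SXC mutant against wild type was −0.12 to 0.12. A second probe set of ATPsyngamma (mean level 13.38) differed by 0.09 (SE 0.07, limma adjusted p = 0.432), and its SXC and wild-type arrays overlapped as well. ATPsyndelta (mean level 13.40) differed by −0.11 (SE 0.06, limma adjusted p = 0.272), with every SXC array below every wild-type array.

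ATPsynbeta was the main subunit with higher, non-overlapping readings in the SXC mutant. Its brighter probe set read 14.05, 14.01 and 14.00 in wild type, 14.06, 14.02 and 14.17 in the OGA mutant and 14.10, 14.09 and 14.10 in the SXC mutant, a difference between SXC mutant and wild type of 0.08 (SE 0.06, limma adjusted p = 0.449). A second, dimmer probe set of the gene read 10.78, 10.93 and 10.97 in wild type, 10.96, 10.94 and 10.94 in the OGA mutant and 11.32, 11.27 and 11.22 in the SXC mutant. With this probe set in place of the brighter one ATPsynbeta rose 1.30-fold in the SXC mutant, a log2 change of 0.38 (SE 0.07, 95% interval 0.23 to 0.52, limma adjusted p = 0.00566). Both probe sets point the same way and differ in size, and which transcripts each one detects was not examined. The level of the alpha subunit, encoded by blw outside the naming rule, differed by 0.06 (SE 0.07, adjusted p = 0.630).

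The peripheral stalk was represented by ATPsynB, ATPsynD, ATPsynCF6 (coupling factor 6) and ATPsynO (the oligomycin sensitivity conferring protein). For all 4 genes the SXC arrays lay below the wild-type arrays without overlap, as they did for 18.7% of all genes. In limma 0 passed, where 12.9% of all genes did, and 1 had an unadjusted p under 0.05, as did 3124 genes in all. ATPsynB read 13.70, 13.71 and 13.73 in wild type against 13.58, 13.62 and 13.57 in the SXC mutant, a difference of −0.13 (SE 0.06, adjusted p = 0.191). ATPsynO (mean level 13.84) differed by −0.12 (SE 0.06, adjusted p = 0.254), ATPsynD (13.76) by −0.10 (SE 0.07, adjusted p = 0.472) and ATPsynCF6 (13.97) by −0.08 (SE 0.06, adjusted p = 0.432).

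Among the membrane subunits, ATPsynE, which helps pair ATP synthases into dimers, read 13.68, 13.66 and 13.71 in wild type, 13.61, 13.68 and 13.64 in the OGA mutant and 13.57, 13.48 and 13.50 in the SXC mutant. Its SXC arrays were below all others, and the difference from wild type was −0.16 (SE 0.06, 95% interval −0.29 to −0.04, limma adjusted p = 0.0928). ATPsynF (mean level 13.81) differed by −0.02 (SE 0.07, adjusted p = 0.884), and ATPsynC (13.66), which forms the rotating ring, by 0.05 (SE 0.09, adjusted p = 0.811). The groups of ATPsynF and ATPsynC overlapped.

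Of the dim paralogs, COX6AL came nearest to the threshold in the SXC mutant. It read 5.21, 5.39 and 5.24 in wild type, 5.17, 5.22 and 5.21 in the OGA mutant and 5.09 on each array of the SXC mutant. The SXC arrays were the lowest, with a difference from wild type of −0.19 (SE 0.06, limma adjusted p = 0.0829). COX4L differed by −0.14 (SE 0.06, adjusted p = 0.170) and COX7AL by −0.23 (SE 0.11, adjusted p = 0.195). The remaining paralogs were COX5BL, COX6AL2 (mean level 4.28), COX6CL (4.51), COX7AL2 (5.70), ATPsynCF6L (4.88), ATPsynGL and ATPsynbetaL (5.43). They differed by −0.03 to 0.12, and their SXC and wild-type arrays overlapped.

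The dimmest probe set of complex IV, that of COX5BL, read 3.995, 4.006 and 4.180 in wild type, 3.956, 4.052 and 4.004 in the OGA mutant and 4.139, 3.968 and 3.979 in the SXC mutant, and the dimmest of complex V, that of ATPsynGL, read 4.719, 4.884 and 4.938, then 4.998, 4.774 and 4.865, then 5.006, 4.866 and 4.730 in the same order of groups. The groups of both genes overlapped. SXC mutant replicate 1 gave the highest reading of 5 paralogs, COX6AL2, COX6CL, COX7AL2, ATPsynGL and ATPsynbetaL. It did so for 1 main subunit, COX7B, and for 24.7% of all genes. The testis markers, a list of 39 measured genes, had a median level of 4.86, with 5 above the median gene. Their summed signal was 6483 to 6583 in wild type, 6749 to 7192 in the OGA mutant and 6569 to 6886 in the SXC mutant. Without nes, the brightest, the sums were 4039 to 4374 in wild type, 4310 to 4347 in the OGA mutant and 3880 to 4081 in the SXC mutant. Among those 39 markers 1 gene rose and 2 fell in the SXC mutant, where 5.09% of all genes passed with a higher value and 7.83% with a lower one. The part of the testis markers in the readings of the paralogs was not tested.

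**Figure D3:**
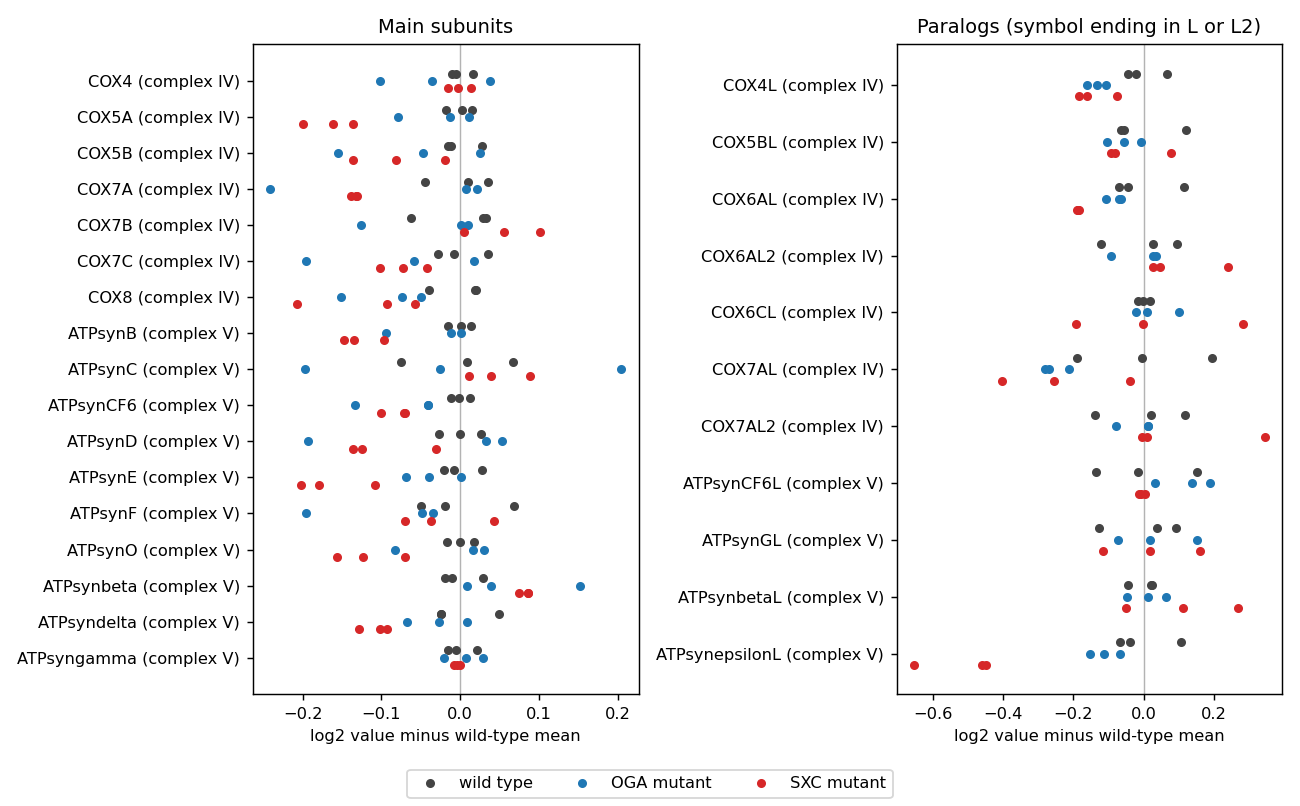
Log2 value of each array minus the wild-type mean of the same gene, for main subunits (left) and paralogs (right), with 3 points per genotype and different horizontal scales. For COX5A, ATPsynB, ATPsynE and ATPsynepsilonL all red points (SXC mutant) lie left of the black ones (wild type), while the blue points (OGA mutant) of COX5A, ATPsynB and ATPsynE overlap the black ones.

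In the OGA mutant against wild type 0 of 28 members passed in limma, where 0.00835% of all genes did, Oga alone. At an unadjusted p under 0.05 there was 1 member, COX7AL, among 468 genes. The main subunits differed by −0.09 to 0.07 with a median of −0.04, and 15 of 17 were negative (50.3% of all genes). Leaving out 1 array, this median was −0.01 (OGA mutant 1), −0.06 (OGA mutant 2) or −0.02 (wild type 3), and it was −0.015 with 13 of 17 negative once the length trend was removed. The arrays did not overlap for 2 of 17, COX8 and ATPsynCF6, against 9.04% of all genes; both were lower in the OGA mutant, where 4.23% of all genes were apart and lower and 4.81% apart and higher. The paralogs had a median of −0.02, and the median over all genes was −0.00055.

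COX7AL, a paralog of COX7A, read 6.21, 6.01 and 5.83 in wild type, 5.75, 5.74 and 5.80 in the OGA mutant and 5.61, 5.76 and 5.97 in the SXC mutant. The OGA arrays lay just below the lowest wild-type array, and the difference was −0.25 (SE 0.11, 95% interval −0.49 to −0.02, limma adjusted p = 0.974). COX4L read 5.03, 4.92 and 4.94 in wild type, 4.85, 4.80 and 4.83 in the OGA mutant and 4.89, 4.78 and 4.80 in the SXC mutant, and its difference between OGA mutant and wild type was −0.13 (SE 0.06, adjusted p = 0.974). ATPsynepsilonL differed by −0.11 (SE 0.08, 95% interval −0.28 to 0.05, adjusted p = 0.974). Among the main subunits, OGA mutant replicate 1 held the lowest of the 9 readings for 5 genes (9.1% of all genes). OGA mutant replicate 3 held the lowest for another 5 (14.4%) and the highest for 4 (19.3%). Wild type replicate 3 held the highest for 8 of 17, against 9.96% of all genes.

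**Figure D4:**
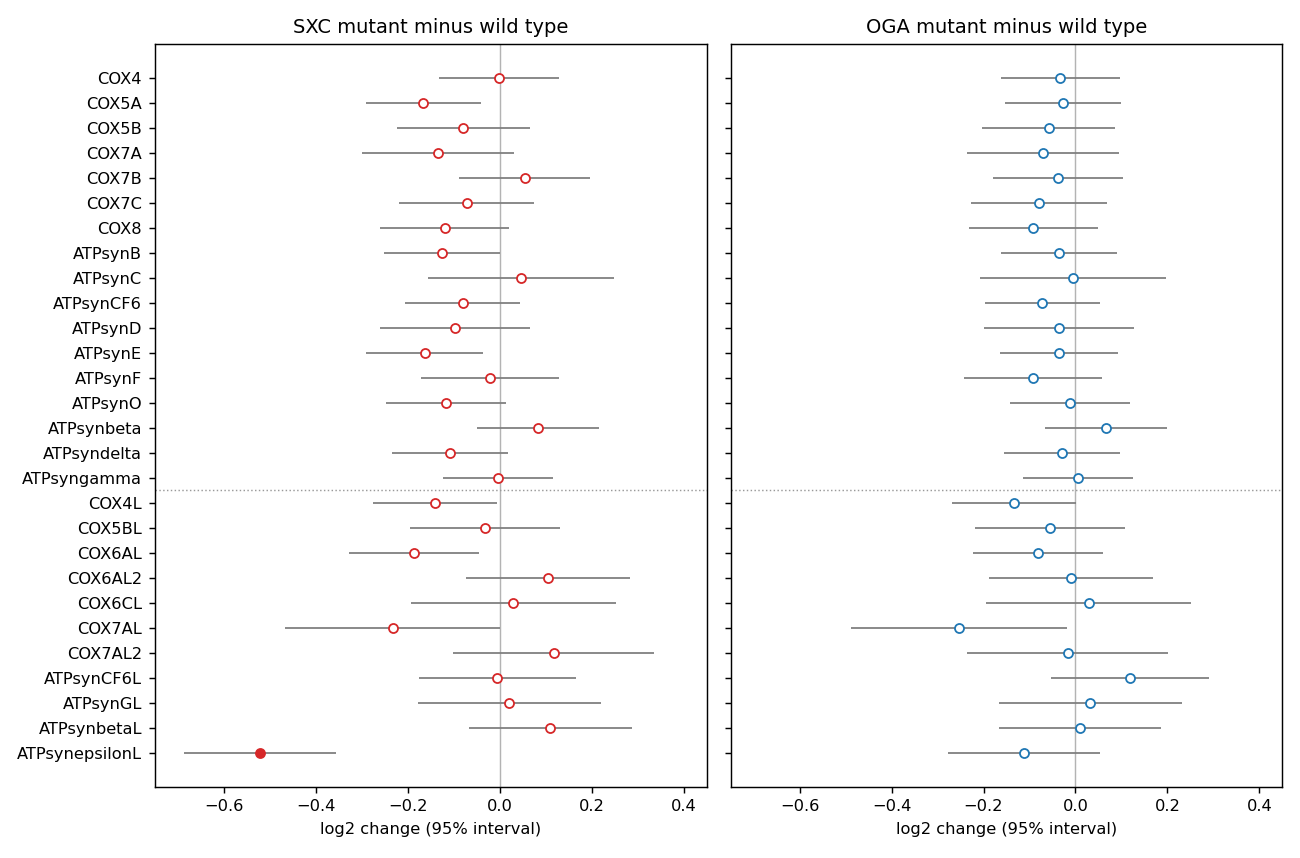
Log2 change of each member against wild type (circles) with its 95% interval from the limma fit (bars), main subunits above the dotted line and paralogs below. The filled circle, ATPsynepsilonL in the SXC mutant at −0.52, is the one that passed an adjusted p of 0.05; open circles did not pass.

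Set directly against the SXC mutant, the OGA mutant differed in 1 of 28 members, where 11.8% of all genes passed and 7.79% passed with a higher value and 3.98% with a lower one. ATPsynepsilonL was 1.33-fold higher in the OGA mutant, a log2 difference of 0.41 (SE 0.08, 95% interval 0.24 to 0.57, limma adjusted p = 0.00716); the wild-type arrays enter this test only through the shared estimate of spread. COX5A came next, at 0.14 (SE 0.06, 95% interval 0.01 to 0.27, adjusted p = 0.145). The median difference of the main subunits was 0.02, against 0.0083 over all genes, and 6 of 17 were negative, against 47.6% of all genes. The mutants did not overlap for 4 main subunits, COX5A, ATPsynB, ATPsynE and ATPsyndelta, against 30.2% of all genes, and each was higher in the OGA mutant (18.5% of all genes). The comparisons of the mutants with wild type share the wild-type arrays, so their values are given side by side and were not correlated.

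The genes that help assemble complex IV were read beside it, and those named Cox were picked after their values were seen. Cox11, which delivers copper to the enzyme, fell in the SXC mutant: it read 10.77, 10.85 and 10.86 in wild type, 10.68, 10.83 and 10.86 in the OGA mutant and 10.55, 10.52 and 10.49 in the SXC mutant, a change of −0.30 (SE 0.07, limma adjusted p = 0.0127). The SXC arrays were below all others. A separate list drawn up for complex IV assembly held 6 measured genes, among them Uqcc1, an assembly factor of complex III. In that list the median was −0.04, and 1 gene fell and 0 rose, where 7.83% of all genes passed with a lower value. That gene, Coa8, fell by 0.35 (SE 0.07, adjusted p = 0.00737), while the copper chaperone Cox17 differed by −0.16 (SE 0.06, adjusted p = 0.101), Cox10, which makes the heme A precursor, by −0.02 (SE 0.08, adjusted p = 0.884) and the copper carrier Scox by 0.03 (SE 0.06, adjusted p = 0.820). Of the subunits of complex IV with other symbols, cype, the subunit VIc, differed by 0.19 (SE 0.08, adjusted p = 0.159) and levy, the subunit VIa, by −0.02 (SE 0.06, adjusted p = 0.871).

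Elsewhere in the respiratory chain, 5 of 32 measured complex I subunits fell in the SXC mutant and 0 rose, where 7.83% of all genes passed with a lower value and 12.9% passed either way. The median was −0.11, and 25 were negative, against 51.8% of all genes. The largest of these falls were in ND-B14.5A, by 0.35 (SE 0.06, limma adjusted p = 0.00572), and ND-18, by 0.31 (SE 0.07, adjusted p = 0.0172). In complex II 1 of 5 fell, the membrane anchor SdhD (−0.32, SE 0.07, adjusted p = 0.0113), and the median was −0.09. In complex III 0 of 10 passed in limma, with 1 at an unadjusted p under 0.05, and the median was −0.05. These lists hold paralogs too; without them, a split made after the values were seen, the medians were −0.12 over 27 main subunits of complex I, −0.09 over 3 of complex II and −0.03 over 7 of complex III. The main subunits that the naming rule found had a median of −0.08 in complex IV and of −0.09 in complex V. The subunits cype, levy, blw and sun, whose differences are given above, carry other symbols and are not in these medians. Of 11 measured genes for mitochondrial biogenesis, genome maintenance, fusion and fission 3 fell and 0 rose: mtTFB2, a transcription factor of the mitochondrial genome (−0.32, SE 0.08, adjusted p = 0.0259), mtSSB, its single-strand binding protein (−0.25, SE 0.06, adjusted p = 0.0173), and TFAM, its packaging protein (−0.25, SE 0.07, adjusted p = 0.0492). The list had 5 positive and 6 negative differences, up to 0.19. Its SXC and wild-type arrays were apart and lower for 3 genes (18.7% of all genes) and apart and higher for 3 (14.0%). In the OGA mutant 0 genes of these lists passed, with medians of −0.04, −0.06, −0.03 and 0.0030 for complexes I, II and III and the biogenesis genes and 0 of their genes at an unadjusted p under 0.05.

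**Figure D5:**
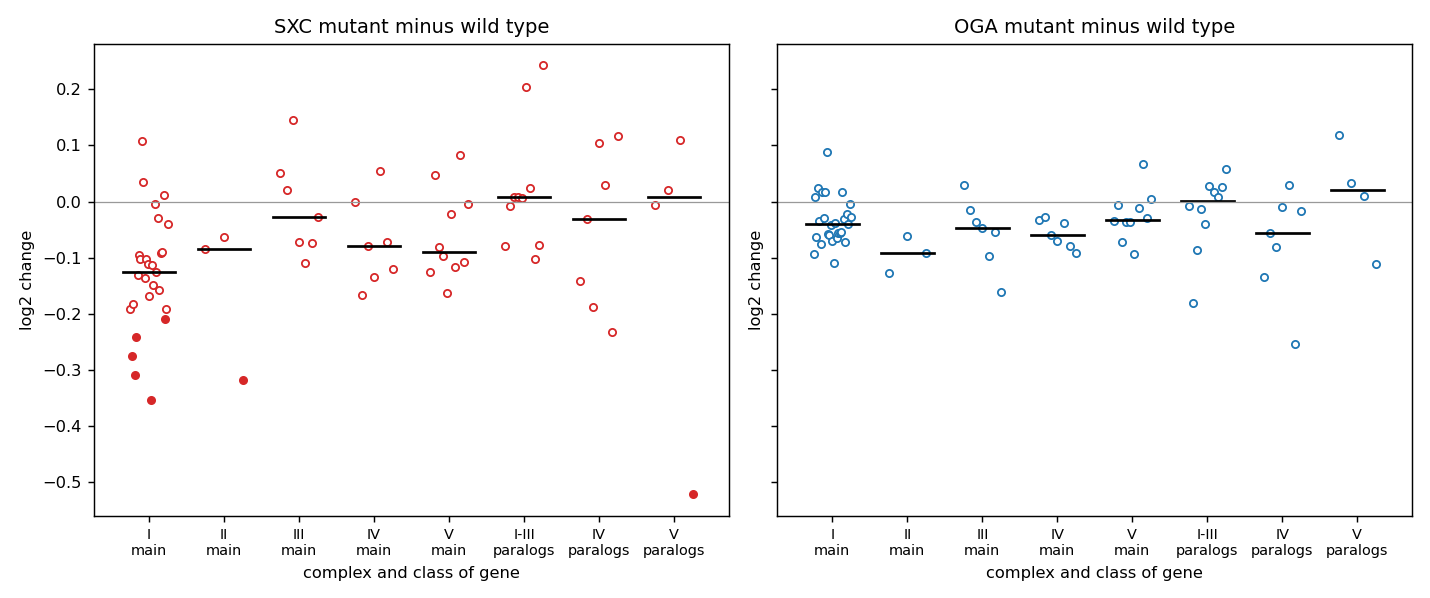
Log2 change against wild type of main subunits by complex and, on the right of each panel, of paralogs (circles) with the median (black line). The SXC mutant is on the left and the OGA mutant on the right, and filled circles passed an adjusted p of 0.05. For complexes IV and V only genes found by the naming rule are drawn, without cype, levy, blw and sun. Medians of the main subunits in the SXC mutant are −0.12 for complex I, −0.09 for complex II, −0.03 for complex III, −0.08 for complex IV and −0.09 for complex V, with 5, 1, 0, 0 and 0 passing; among the paralogs ATPsynepsilonL passed.

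The members share short genes. The median gene length was 1226 bp for the main subunits and 690 bp for the paralogs, against 2263 bp for all genes tested, and 22 of 28 were shorter than 2000 bp. Across genes, which are not independent replicates, Pearson's r between log gene length and the log2 difference from wild type was 0.18 for the SXC mutant and 0.26 for the OGA mutant over 11894 genes; all points share the same arrays and wild-type controls. With the length trend removed, COX5A differed by −0.12 (SE 0.05, limma adjusted p = 0.207), while ATPsynepsilonL kept a change of −0.49 (SE 0.08, adjusted p = 0.00536). The part of the RNA quality difference given above in the smaller readings was not tested.

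By position, 8 of the 17 main subunits lie on chromosome arm 3R, and ATPsynbeta lies on chromosome 4. ATPsynepsilonL lies on 3R, while sun is on the X chromosome. COX5BL and COX7AL lie beside the genes they resemble, with 1 and 2 other protein-coding genes between. Markers of the ovary and germline (22 measured) had 5 genes above the median gene, yolk proteins 0 of 3 and muscle markers 2 of 16. The summed signal of the ovary and germline list was 8771 to 9206 in wild type, 8779 to 9991 in the OGA mutant and 9513 to 10036 in the SXC mutant. Of its genes 1 passed there, grk, the brightest, which rose, where 12.9% of all genes passed. In that list 14 were positive and 8 negative, with a median of 0.02, and without grk the summed signal was 6552 to 7032 in wild type and 6392 to 7177 in the SXC mutant. Muscle marker sums were 4727 to 5195 in wild type, 4830 to 5138 in the OGA mutant and 4631 to 4789 in the SXC mutant. Without bt, the brightest, they were 2203 to 2393, 2362 to 2392 and 2193 to 2341 in the same order. In the SXC mutant this list had 11 positive and 5 negative differences, a median of 0.02 and 1 gene called, up, which rose. The summed signal of 9 neuron markers was 809 to 865 in wild type, 861 to 949 in the OGA mutant and 738 to 778 in the SXC mutant, with 4 positive and 5 negative differences. The gene called was elav, the brightest, which fell; without it the sums were 513 to 559 in wild type and 517 to 523 in the SXC mutant. The 11 accessory gland markers summed to 246 to 258 in wild type, 237 to 254 in the OGA mutant and 248 to 259.6 in the SXC mutant, and Acp62F was lower in the OGA than in the SXC mutant (−0.27, SE 0.08, limma adjusted p = 0.0428). Fat body marker sums (6 genes) were 19725 to 19956 in wild type, 17221 to 22237 in the OGA mutant and 19118 to 21309 in the SXC mutant. Most of that signal came from FASN1, the brightest. Without it the sums were 706 to 867, 669 to 777 and 802 to 844 in the same order. The part of these shifts in the members' readings was not tested.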

How the data were processed

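Expression was measured on 9 Affymetrix Drosophila arrays, 3 per genotype. The values the authors deposited, 1 per probe set and array, are log2 signals, a scale read from the values; the submitters' processing notes name MAS5, RMA and Partek without roles, and all columns mapped to a sample (0 unmapped). Of 18952 probe sets, 183 controls were left out and 13647 listed with 1 gene were used, with symbols updated through the gene identifier to RefSeq (Release 6); for genes with several, the probe set with the highest mean was used. Groups were compared over all 9 arrays with limma 3.58.1 in R 4.3.3 (6 residual and 5.17 prior degrees of freedom), with Benjamini-Hochberg adjustment over 11983 genes and calls at an adjusted p under 0.05. The procedure was tested on simulated data. Alternatives changed the scaling, filter, moderation, array weights, probe set choice, length trend and replicate block, or left out 1 array; members called in neither fit were taken to have no direction. Named with array values are members called, those with the smallest p per comparison, and the brightest and dimmest of each complex; other members shown so were picked after their values were seen. The members and lists were chosen with earlier results of these data known. The number of arrays limits the precision.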

Additional observations from a re-analysis of the deposited data

How the results depend on the processing

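Over 20 alternatives, 9 of which left out 1 array each, the fall of ATPsynepsilonL in the SXC mutant stayed between −0.56 and −0.45 (limma adjusted p of 0.000232 to 0.0200), and its difference between the mutants between 0.33 and 0.45 (adjusted p of 0.00418 to 0.0431). With the replicate block the fall was −0.52 (adjusted p = 0.0070); the arrays share only a number, since deviations of same-numbered arrays correlated at −0.22 to 0.29, and the block changed no count of members called. Members called in the SXC mutant numbered 1 of 28, beside 1548 of 11983 genes. A prior that was robust and followed intensity gave 4 (COX5A, ATPsynE and ATPsynB added), beside 1747 of all genes. No moderation gave 3 (COX5A and ATPsynE), beside 820, and array quality weights 5 (COX5A, ATPsynE, COX4L and COX6AL), beside 2824. The most variable probe set and the mean of probe sets each gave 2 (ATPsynbeta, higher), beside 1526 and 1535. Between the mutants the robust prior gave 2 members (COX5A added), beside 1559 of all genes. There the most variable probe set also gave 2 (ATPsynbeta added), beside 1377. In the OGA mutant 0 members were called throughout. The main subunits' median in the SXC mutant was −0.10 with quantile normalization and −0.034 with the length trend removed; between the mutants it was −0.014 with median centring and −0.0096 with the length trend removed. The paralogs' median in the OGA mutant was −0.043 with array weights, and the filter at the 25th percentile left too few paralogs for a median. With 1 array left out, the paralogs' median ranged from −0.086 to 0.029 in the SXC mutant, from −0.071 to 0.0038 in the OGA mutant and from −0.050 to 0.039 between the mutants. Over all genes, 1548 calls in the SXC mutant became 820 with no moderation, 2824 with array weights, and, leaving out 1 array, 664 (wild type 1), 1027 (wild type 2), 896 (SXC 1) or 984 (SXC 2). Between the mutants 1410 became 459 with no moderation, 724 without SXC replicate 1, 793 without SXC replicate 2 and 806 without OGA replicate 3; in the OGA mutant 1 became 0 to 2. The cause of these shifts was not tested.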
